A study of Homo sapiens with 20 samples.

Results

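In control LNCaP cells 33377 CTCF sites and 31150 H3K4me3 regions were each called in both replicate libraries, and 4290 of the CTCF sites had their summit inside an H3K4me3 region. These were chosen by position alone. Of the 20 libraries of the series, the 2 CTCF peak lists and the 2 H3K4me3 region lists of control LNCaP cells were used, limited to chromosomes 1 to 22 and X, and overlapping intervals were merged and kept when both libraries of an antibody held one. The merged lists of intervals called in either library held 50720 CTCF sites and 52605 H3K4me3 regions.

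LNCaP is an established human prostate cancer cell line with a luminal, androgen-responsive character. The cells had received a non-targeting siRNA pool at 20 nM and were harvested for ChIP-seq 144 h after the first transfection, with a repeat transfection during that time, so all values describe transfected cells of 1 line and not untreated cells or tissue. CTCF and H3K4me3 libraries of the same line given CTCF siRNA, at the same dose and time, served below for 1 purpose only. It was to ask which control CTCF sites and H3K4me3 regions were still called after depletion. Control H3K27ac and control IMR90 (lung fibroblast) CTCF libraries served as further readouts. Each ChIP was done in biological duplicate, and a spread over 2 libraries is a rough guide to their error.

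CTCF is a zinc finger protein that binds a long, asymmetric DNA motif. Together with the cohesin complex it anchors chromatin loops, and it marks boundaries between chromatin domains. H3K4me3, trimethylation of lysine at the tail of histone H3, is deposited by the SETD1 and KMT2 methyltransferase complexes around the transcription start sites (TSS) of active and poised genes, and CpG-rich promoters carry the widest stretches. Weaker and narrower H3K4me3 also occurs at some enhancers. The comparison therefore asked where CTCF lay relative to this promoter mark, how strong its peaks were there, and what else the sites had in common.

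The labelled cell type was checked against the promoters that carried H3K4me3. The TSS of all 11 luminal prostate markers lay in a region, among them KLK2, KLK3, TMPRSS2, FOXA1, HOXB13, KRT8 and KRT18, as did 1 of 7 fibroblast markers (TWIST1), 0 of 3 basal prostate markers and 0 of 5 blood cell markers. Over all 19478 protein-coding genes the share was 62.1%. The lists hold no read counts, and the read depths that the study gives for its libraries were not used here, so the depth behind a single peak was not assessed. The CTCF lists held 37969 peaks in replicate 1 and 46293 in replicate 2, of which 88.2% and 72.2% overlapped a peak of the other, and the H3K4me3 lists held 36492 and 48462 regions, of which 87.9% and 64.9% did.

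The strongest sites of 3 positions are shown first, because they let the motif be compared between CTCF inside H3K4me3, CTCF beside it, and CTCF far from it. Sequences are from GRCh37 (hg19), read 5′ to 3′ on the strand of the motif, with the best match to the CTCF consensus motif in capitals. Fold enrichment is the height of a peak over local background as MACS2 gave it, and values are for replicates 1 and 2.
inside, ZNF385A intron, chr12:54773614-54773643, minus strand, 1 mismatch: ccactgaaCCGCCAGAGGGCAGcaggtgca
inside, intergenic, chr2:114361766-114361795, minus strand, 0 mismatches: ccccggcgCCAGCAGGGGGCGCtggacagc
inside, CELSR2 intron, chr1:109806360-109806389, plus strand, 1 mismatch: gcaggccaTCACCAGGGGGCGCagcaccat
beside, intergenic, chr9:140131061-140131090, minus strand, 1 mismatch: cggagtgtCCACCAGGAGGCAGcatcgggc
beside, CFAP44 UTR, chr3:113007084-113007113, minus strand, 2 mismatches: tattttggCCAGCAGAGGATGCacttgccc
far, CCL1 intron, chr17:32688714-32688743, minus strand, 2 mismatches: aagagtagACACTAGATGACAGtattttac
far, FHIT intron, chr3:59843650-59843679, minus strand, 0 mismatches: tcaggggaCCAGCAGGTGGCGCccgtaagt

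Among the inside sites, the ZNF385A site had fold enrichments of 52.9 and 81.2, and its summit lay 366 bp from the edge of a 2200 bp region. The intergenic chromosome 2 site, 22975 bp upstream of the nearest TSS, that of RABL2A, reached 64.2 and 57.6. At CELSR2, a gene for an adhesion receptor of the cadherin family, the site reached 53.3 and 61.4 and sat near the centre of its 1300 bp region, at a relative depth of 0.902 on a scale from 0 at the edge to 1 at the centre. Each of these regions overlapped H3K27ac at the summit. The chromosome 2 site alone among these had a peak in both CTCF siRNA libraries, whereas the other two were called in siRNA replicate 2 only.

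Beside the regions, the chromosome 9 site lay 793 bp from the region nearest to it and 4631 bp upstream of the tubulin gene TUBB4B, with fold enrichments of 63.9 and 38.3. The CFAP44 site lay 270 bp outside, with 43.8 and 57.0. Far from any region, the leading sites were an intergenic one at chr8:9688353-9688932 with 63.3 and 66.6, the CCL1 site with 53.5 and 55.3, and the FHIT site with 50.1 and 54.4. These last lay 102004, 217045 and 178690 bp from the nearest H3K4me3 region, so fold enrichments above 50 in both libraries were found both inside regions and far from them.

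CTCF summits fell inside H3K4me3 regions more often than the same positions moved along their chromosomes. The inside share was 12.9% of sites, with a 95% Wilson interval from 12.5% to 13.2% that, like all such intervals here, covers counting error only. For positions shifted by 1, 2 or 5 Mb in either direction the share was 2.94% on average and between 2.75% and 3.23% over the 6 shifts, a ratio of 4.38. Each pairing of single libraries gave the same order. CTCF replicate 1 had 15.8% of peaks inside the regions of H3K4me3 replicate 1 and 19.1% inside those of replicate 2, and CTCF replicate 2 had 11.2% and 14.2%. The matching ratios to shifted positions were 5.83, 5.52, 4.20 and 4.16, so the ratio was higher with CTCF replicate 1 than with CTCF replicate 2 whichever H3K4me3 list was used.

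Past the region edges the ratio was near 1. In the first 1000 bp outside an edge lay 844 sites, or 2.53%, against 2.45% of shifted positions, a ratio of 1.03. Between 1 and 10 kb the shares were 18.2% and 17.4%, and between 10 and 100 kb 51.1% and 53.3%. Beyond 100 kb lay 15.4% of sites and 24.0% of shifted positions, a ratio of 0.641. The outside ratios depended on the choice of shift. Positions moved by only 50 or 100 kb gave 0.846 within 1000 bp, 0.886 from 1 to 10 kb and 0.953 beyond 100 kb, and positions moved by 10 or 20 Mb gave 1.11, 1.13 and 0.586. Inside, they gave 3.62 and 4.94. The median distance of outside sites to the nearest region was 29617 bp, against 35015 to 40271 bp after the 6 shifts.

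**Figure D1:**
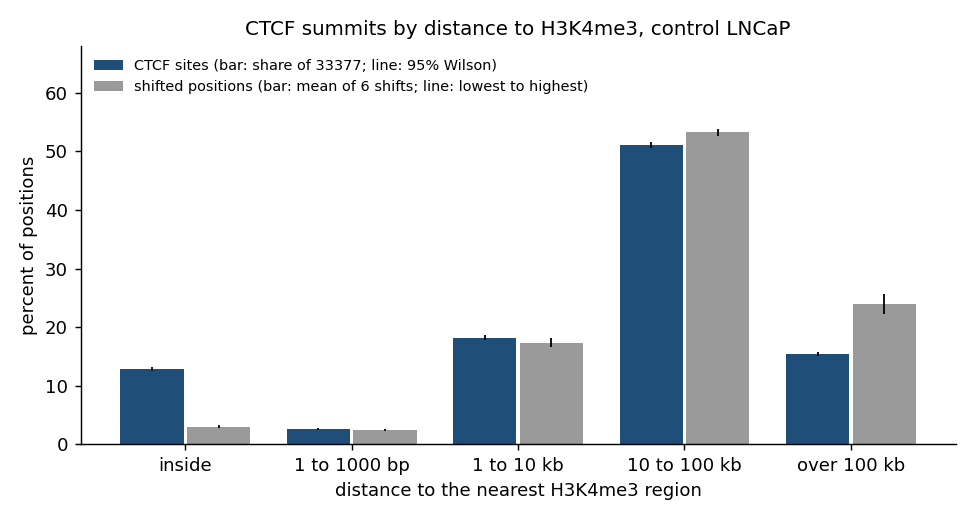
Percent of 33377 control CTCF sites (blue, lines: 95% Wilson intervals) and of shifted positions (grey, mean of 6 shifts, lines: lowest to highest shift) by distance of the summit to the nearest H3K4me3 region. The inside class holds 12.9% of sites and 2.94% of shifted positions, while the bars of the 1 to 1000 bp class are 2.53% and 2.45%.

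At finer scale the change came within the outermost stretch of a region. In 250-bp bins, 1288 summits lay 250 to 500 bp inside an edge, where shifted positions gave 213.5 on average, and 1021 and 710 lay in the next bins inward, at ratios of 6.10 and 5.96. The outermost 250 bp inside an edge held 371 summits, a ratio of 1.69. Just outside, the first bin held 195 summits against 214.1, a ratio of 0.911, and over the bins out to 5000 bp the ratio ran between 0.911 and 1.18. Summits were thus sparser at the rim of a region than further in. The median relative depth of inside summits was 0.606, against 0.615, 0.638, 0.579 and 0.603 in the 4 pairings of single libraries and 0.5 for evenly spread positions. Of the inside summits 6.74% lay in the outermost of 5 equal depth bands, 14.2% in the next, then 27.7%, 30.2% and, around the centre, 21.1%, where shifted positions gave 20.0%, 21.0%, 19.2%, 19.4% and 20.4%.

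**Figure D2:**
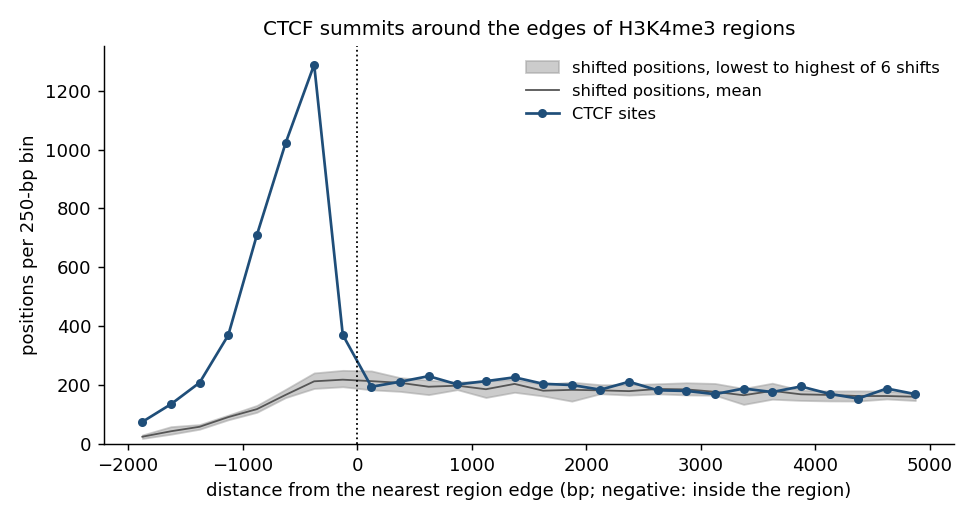
Number of CTCF summits (blue) and of shifted positions (line: mean, grey band: lowest to highest of 6 shifts) per 250-bp bin around the nearest H3K4me3 region edge, with negative distances inside the region. The blue line peaks at 1288 summits between 250 and 500 bp inside the edge and runs within or near the grey band outside it.

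Seen from the H3K4me3 side, 4081 of 31150 regions, or 13.1%, held a CTCF summit, against 3.00% for shifted positions. Most of these held 1 (3884 regions), while 186 held 2, 10 held 3 and 1 held 4. Regions without CTCF lay a median of 24515 bp from the nearest site. Wider regions held CTCF more often, from 10.6% in the narrowest of 5 width classes (550 to 1250 bp) to 17.9% in the widest (3200 to 57550 bp). Per megabase of region the order was the opposite, with 100.8 sites in the narrowest and 47.3 in the widest, against 12.0 and 14.6 for shifted positions. Peaks in narrow regions were also the higher ones, with median fold enrichments of 15.4 and 15.9 in the 2 libraries, against 10.3 and 9.83 in the widest.

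The region with 4 sites covered the start of BCL6, a transcriptional repressor best known from germinal centre B cells, at chr3:187456451-187464650. Its sites, in order along the chromosome, had fold enrichments of 11.1 and 19.0, 23.6 and 6.56, 14.9 and 4.75, and 13.3 and 18.3, so the inner pair was higher in replicate 1 and the outer pair in replicate 2. A 12650 bp region at RGMB, which encodes a BMP co-receptor, held 3 sites with 27.7 and 48.9, 14.0 and 10.2, and 28.1 and 37.8. Another, a 17400 bp stretch at chr2:133018251-133035650 with no protein-coding TSS, held 3 weak sites, with fold enrichments between 1.82 and 5.11, and none of them had a motif within 2 mismatches. The weakest of these, at 1.98 and 1.82 and at 2.21 and 2.00, nevertheless had a peak in both CTCF siRNA libraries. All 3 regions were still called in both H3K4me3 libraries after CTCF siRNA.

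Among sites called in both CTCF libraries, peak height did not separate inside from outside sites in the same way in each. In replicate 1 the median fold enrichment was 12.4 inside, 11.2 within 1000 bp, 12.0 from 1 to 10 kb, 11.3 from 10 to 100 kb and 9.95 beyond 100 kb, so the inside class was the highest. In replicate 2 the same classes had 12.0, 13.8, 14.6, 14.0 and 12.2, so it was the lowest. The difference of median log2 fold enrichment between inside sites and those beyond 100 kb was 0.32 in replicate 1 and -0.02 in replicate 2, a mean of 0.15 ± 0.24 (SD, n = 2), with p = 1 by a two-sided exact permutation test that cannot go below 0.5 with 2 libraries. The fall in height from the 1 to 10 kb class to the class beyond 100 kb was seen in both.

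The offset between the libraries departed most at promoters from that at outside sites. Replicate 2 gave the higher fold enrichment at 75.1% to 78.9% of the sites in the 4 outside classes but at 59.3% of inside sites. Among sites in regions with a protein-coding TSS this was 53.9%, with a median log2 ratio of replicate 2 to replicate 1 of 0.05, and in regions without one it was 64.6%, with 0.17, against 0.30 for outside sites. In the 250 bp upstream of a TSS the median log2 ratio was -0.15. Peaks called in only 1 library differed more widely still. Of the 4488 sites found in replicate 1 only, 40.9% lay inside an H3K4me3 region, against 8.14% of the 12855 found in replicate 2 only. What sets the 2 libraries apart was not tested, and results that turn on 1 of them are given with and without it.

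**Figure D3:**
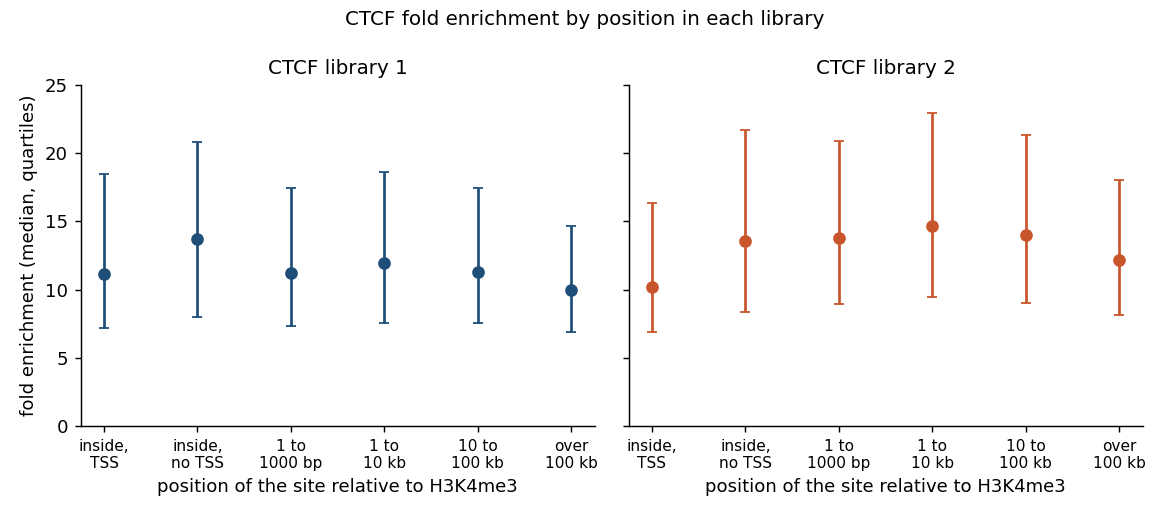
CTCF fold enrichment (points: medians, lines: interquartile range) by position of the site relative to H3K4me3 in CTCF library 1 (left) and library 2 (right), with inside sites divided by whether the region held a protein-coding TSS. Inside sites without a TSS have medians of 13.7 and 13.6, whereas those with a TSS have 11.2 and 10.2, close to the outside classes in library 1 and below them in library 2.

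Dividing inside sites by the kind of region drew 2 groups of almost equal size apart. Regions with a protein-coding TSS held 2126 of the inside sites, with median fold enrichments of 11.2 and 10.2. Regions without one held 2164, with 13.7 and 13.6. Over 10 strength classes of mean fold enrichment, the share of all CTCF sites that lay in a region with a TSS went from 8.84% in the weakest to 4.07% in the strongest, and in a region without a TSS from 7.19% in the weakest, through 4.79% in the next, to 8.12% in the strongest. The fall in regions with a TSS came from replicate 2, where the share went from 12.2% in the weakest to 3.10% in the strongest class, whereas replicate 1 had 7.70% and 7.25%. The rise in regions without a TSS came from replicate 1, from 4.32% in the second weakest class to 10.3% in the strongest, whereas in replicate 2 the weakest class was the highest, at 8.61%, and the strongest had 6.85%.

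Inside sites lay near a TSS more often than outside sites, and those near one lay mostly upstream of it. A protein-coding TSS lay within 1000 bp of 1727 inside sites, or 40.3%, against 2.87% of outside sites. The inside class was set by a promoter mark, and 39.4% of all H3K4me3 regions held a protein-coding TSS, so this difference is not particular to CTCF. Regions with CTCF held a TSS in 48.8% of cases, against 45.9% of regions without CTCF weighted to the same widths. Of the 1727 inside sites near a TSS, 68.1% were upstream of it. The 250 bp directly upstream held 685, or 39.7%, where the 250 bp directly downstream held 193. Median fold enrichments in the 250 bp upstream were 14.8 in replicate 1 and 10.5 in replicate 2. Among the other inside sites 24.6% of the total lay in introns, 3.22% in exons and 31.9% between genes, against 43.3%, 3.93% and 49.9% of outside sites. These shares counted protein-coding genes only, so a site in another kind of gene alone was placed between genes.

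The motif had a preferred strand at these promoters. Of inside sites within 1000 bp of a TSS that had a motif, 58.8% (55.7% to 62.0%) had it on the strand of the gene. In the 250 bp upstream this was 270 of 393 sites, or 68.7% (64.0% to 73.1%), and from 250 to 1000 bp downstream 74 of 182, or 40.7% (33.8% to 47.9%). The share was 62.8% (52.2% to 72.3%) in the 250 bp directly downstream and 55.4% (49.5% to 61.2%) from 250 to 1000 bp upstream. Away from promoters, the 3′ end of the motif pointed towards the nearest H3K4me3 region in 52.4% (48.4% to 56.4%) of sites within 1000 bp of it and in 46.6% (45.7% to 47.4%) of those 10 to 100 kb away, a much smaller departure from an even division.

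**Figure D4:**
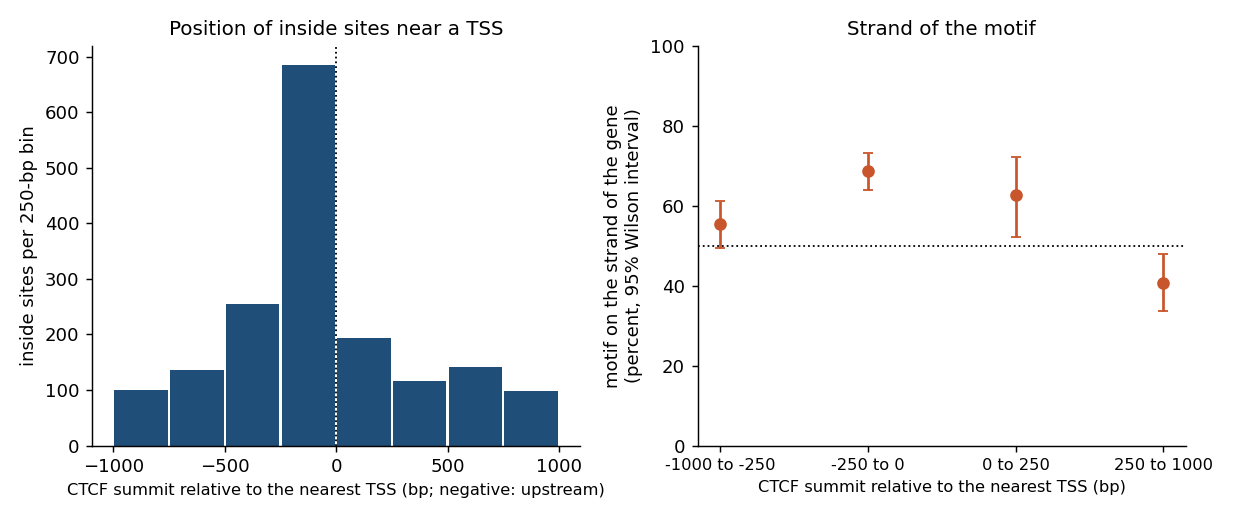
Left, number of inside CTCF sites per 250-bp bin relative to the nearest protein-coding TSS, where the bin directly upstream holds 685 sites. Right, percent of motifs on the strand of the gene with 95% Wilson intervals, from 68.7% directly upstream to 40.7% at 250 to 1000 bp downstream (dotted line: an even division).

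Inside sites matched the CTCF consensus motif less often than outside sites. Within 100 bp of the summit and on either strand, a match with at most 2 mismatches over its 14 letters was present at 60.1% (58.6% to 61.5%) of inside and 75.8% (75.3% to 76.2%) of outside sites. Windows of the same length 1000 bp to each side held one in 7.19% and 5.04%. Weighting outside sites to the fold enrichment of inside sites left the difference, at 75.3% for outside sites. Sites in regions with a TSS had the lowest share, at 53.9%, sites in regions without a TSS had 66.2%, and sites within 1000 bp of an edge had 70.5%. The surrounding sequence differed as well, with a median GC content of 56.2% and 7 CpG dinucleotides in the 201 bp around inside summits, against 47.3% and 2 outside.

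Motif and height went together inside as outside. Inside sites with the motif had median fold enrichments of 15.4 and 14.2, and those without it 8.84 and 9.30, while outside sites had 12.2 and 15.0 with the motif and 8.39 and 10.3 without. The highest medians were at the 1639 inside sites with a motif and no TSS within 1000 bp, at 16.0 and 15.8. The 789 inside sites near a TSS with no motif had 8.87 and 8.55.

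H3K27ac, the acetylation found at active promoters and enhancers, lay over CTCF summits in step with their distance from H3K4me3. It was present at 65.7% of inside summits, 39.9% of those within 1000 bp, 14.5% from 1 to 10 kb, 7.03% from 10 to 100 kb and 2.81% beyond 100 kb. Of all H3K4me3 regions 76.3% overlapped H3K27ac, and no shifted positions were set beside these shares. Whether the fall with distance is particular to CTCF sites was not tested. Among H3K4me3 regions the relation to CTCF depended on the kind of region. Regions with a TSS overlapped H3K27ac in 82.1% of cases with CTCF and 78.1% without, or 81.1% once the latter were weighted to the same widths. Regions without a TSS overlapped it in 56.6% of cases with CTCF and 77.0% without, or 77.8% once the latter were weighted to the same widths. With H3K27ac library 1 alone the shares in regions without a TSS were 62.8% and 84.0%, and with library 2 alone 58.8% and 78.2%.

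There were 4772 H3K4me3 regions with neither a TSS nor H3K27ac, and CTCF lay in 906 of them, or 19.0% (17.9% to 20.1%), against 8.39% (7.94% to 8.85%) of those without a TSS but with H3K27ac. Among the 4 kinds of region by TSS and H3K27ac, their CTCF peaks (the highest of each region) were the strongest, with median fold enrichments of 17.3 and 16.6, 78.6% had the motif, and their summits lay deepest, at a median relative depth of 0.682. These regions were narrow, with a median width of 1250 bp against 1550 bp where H3K27ac was present.

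A larger share of sites in regions without a TSS was still called after CTCF siRNA. Persistent sites, called in each of the 2 LNCaP libraries made after CTCF siRNA, made up 11.7% of inside sites and 8.90% of outside sites. Single siRNA libraries gave the same order, with 13.5% and 9.53% in the first, which by the study's account was sequenced less deeply, and 23.4% and 20.2% in the second. In regions without a TSS the share was 18.0% (16.4% to 19.7%), against 10.3% for outside sites weighted to the same fold enrichment. In regions with a TSS it was 5.27% (4.40% to 6.30%), against 7.01%. Sites within 1000 bp of an edge had 5.57%, less than the 8.76% of outside sites of equal strength. Within regions without a TSS, persistent sites were frequent where H3K27ac was missing, where 28.5% of the regions with CTCF held one, against 10.6% where it was present. This last contrast was not weighted to equal strength. The highest CTCF peaks of these regions had medians of 17.3 and 16.6 without H3K27ac, against 11.2 and 12.5 with it. The motif was present at 78.6% and 58.0%.

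At equal strength the difference between all inside and outside sites was 3.02 percentage points and depended on 1 control library. Without CTCF control replicate 2 it was -1.19 points, and without replicate 1 it was 3.60 points. The difference for regions without a TSS was 7.69 points, and it fell to 3.55 points without CTCF control replicate 2 and was 7.41 points without replicate 1. A site that is not persistent is one that missed the threshold of a peak caller, which does not give the amount of CTCF left.

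H3K4me3 itself was still called at nearly the same share of regions whether or not they held CTCF. Of regions with a TSS, 98.3% with CTCF and 99.0% without were called in both H3K4me3 libraries after CTCF siRNA. Of regions without a TSS the shares were 81.6% (79.8% to 83.2%) and 79.4% (78.8% to 80.0%). Regions without a TSS whose CTCF was not persistent had 80.6% (78.6% to 82.4%), and those with persistent CTCF had 85.9% (82.1% to 89.0%).

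**Figure D5:**
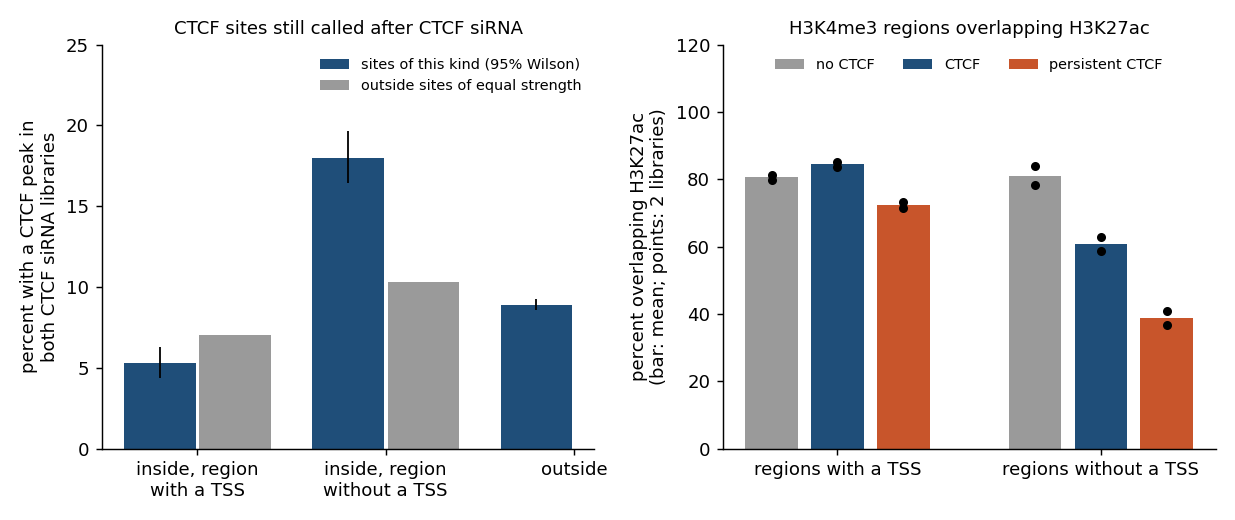
Left, percent of CTCF sites that were called in each of the 2 libraries after CTCF siRNA (blue, lines: 95% Wilson intervals) and of outside sites weighted to the same fold enrichment (grey). Right, percent of H3K4me3 regions overlapping H3K27ac (bars: mean of 2 H3K27ac libraries, points: each library), for regions without CTCF, all regions with CTCF and those with persistent CTCF. Persistent sites make up 18.0% in regions without a TSS, where H3K27ac overlap is lowest with persistent CTCF, at 40.7% and 36.8%.

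Sharing with lung fibroblasts differed between the kinds of region. A peak was called in both control IMR90 libraries at 69.3% of inside and 73.1% of outside sites, and at 59.2% of sites beyond 100 kb. In regions with a TSS it was 72.2%, against 69.5% for outside sites weighted to the same fold enrichment, and in regions without a TSS 66.5%, against 75.1%.

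The inside share varied over chromosomes. It was 20.4% on chromosome 19, with 23.9 H3K4me3 regions per megabase, and 7.22% on chromosome 18, with 4.71. Relative to shifted positions chromosome 19 had the lowest ratio of the 23, at 2.72, and chromosome X the highest, at 9.22.

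At single genes, the canonical TSS was taken and CTCF was called near when a summit lay within 1000 bp. Over all protein-coding genes 62.1% had the TSS in an H3K4me3 region and 7.52% had it there with CTCF near. Of genes with the TSS in a region 12.1% had CTCF near. The lists below are short, and their counts were not tested against these shares. The median distance from TSS to the nearest CTCF summit was 16144 bp for genes in a region and 19217 bp for the others.

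Of 11 androgen-regulated genes 8 had the TSS in a region and 0 had CTCF near it. KLK3, which encodes prostate-specific antigen, lay 51527 bp from the nearest summit and KLK2 33003 bp. TMPRSS2, a serine protease gene, came closest among genes in a region, with a summit 1156 bp upstream inside its 11250 bp region, at fold enrichments of 5.65 and 10.8. The TSS of FKBP5 and KLK4 missed a region by 242 and 1101 bp, and that of TRPM8 by 23783 bp.

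All 8 luminal transcription factor genes had the TSS in a region, and CTCF lay near 2 of them. At FOXA1, a pioneer factor gene, the summit was 897 bp downstream, with 11.5 and 11.1, within a region of 13750 bp. At SPDEF, an ETS factor gene, it was 235 bp downstream, with 10.8 and 11.5. HOXB13, in a region of 13150 bp, had a summit 4037 bp downstream in the same region, with 16.3 and 20.8. Among the luminal markers KRT8, a keratin gene, had a summit 118 bp upstream, with 15.0 and 9.31.

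Of 12 genes for CTCF and cohesin 11 had the TSS in a region, and STAG1, a cohesin subunit gene, had a summit 26 bp upstream with a motif of 0 mismatches. Its fold enrichment was 23.2 in replicate 1 and 7.86 in replicate 2. STAG2, which encodes the other somatic form of that subunit, had a summit 1227 bp upstream with 18.5 and 7.12, so both were far higher in replicate 1. The TSS of CTCF itself lay 29 bp outside the edge of a region.

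All 13 genes for H3K4 methyltransferases, their partners and the KDM5 demethylases had the TSS in a region, and 3 had CTCF near. KMT2B, a methyltransferase gene, had a summit 919 bp upstream with 20.8 and 15.3. RBBP5, for a shared core subunit, had one 397 bp upstream with 6.49 and 12.2, and CXXC1, for the CpG-binding subunit of the SETD1 complexes, one 48 bp upstream with 7.82 and 7.50. All 10 housekeeping genes had the TSS in a region. RPLP0, for a ribosomal protein, had CTCF 222 bp upstream, with 11.6 and 11.9.

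The TSS of 10 genes of other cell types was in a region in 0 cases. Of genes with the TSS outside a region, 3.74% had CTCF within 1000 bp of it. The genes of other cell types, the basal prostate markers and the blood cell markers, all with the TSS outside a region, had no summit that near. The nearest in these lists lay 2647, 3644 and 4444 bp from a TSS, in that order. Among the 6 fibroblast markers of this kind, a list singled out after its values were seen, there were 2 with a summit that near. COL3A1, DCN, LUM and THY1 had none that near. COL1A1 and COL1A2, the type I collagen genes, had summits 942 and 745 bp downstream of the TSS, with 38.5 and 35.5 at the former and 18.9 and 26.1 at the latter, and both sites were persistent. The COL1A1 summit lay inside an H3K4me3 region whose edge was 142 bp from the TSS, whereas the nearest region to the TSS of COL1A2 was 57144 bp away.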

How the data were processed

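Called ChIP-seq peaks of 4 control LNCaP libraries were compared by position. Per the labels, reads were aligned with Bowtie to hg19, and CTCF peaks were called with MACS2. The authors' methods state PeakRanger for the histone regions, calling in each library alone, and the removal of ambiguous and clonal reads, and no input library is named. The deposited CTCF lists give fold enrichment, a ratio that is not scaled between libraries, and p-values and q-values as −log10. The deposited H3K4me3 lists give a score of unstated meaning, used only for ranking in 1 alternative. The lists hold no read counts, the read depths the study states were not used, and a call is relative to a threshold. IMR90 CTCF siRNA, low-cell and siRNA H3K27ac libraries were not used here.

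Intervals overlapping by at least 1 bp were merged, and the summit was the mean of the strongest summit of each library. Shifted positions wrapped at chromosome ends, and those in assembly gaps were left out. Comparisons at equal strength used 20 quantile bins of mean fold enrichment. Annotation was GENCODE 44 on GRCh37, and a TSS is that of any protein-coding transcript, except for named genes (canonical transcript). The motif was the CTCF consensus motif of 14 letters. The exact permutation test flipped signs over 2 libraries. Python 3.11.15, numpy 2.4.6, pandas 2.3.3, scipy 1.17.1, pysam 0.24.0 and matplotlib 3.10.9 were used, and merging, distances, motif search and weighting were tested on simulated data. Sites named are the 3 with the highest mean fold enrichment inside, within 1000 bp and beyond 100 kb, the 3 regions with the most CTCF sites, and, of listed genes, those with the TSS in a region and CTCF within 1000 bp and those against the rest of their list. Of these, 1 site within 1000 bp of an edge and 1 listed gene with CTCF near its TSS are not reported here. TMPRSS2, KLK2, KLK3, HOXB13, STAG2 and the fibroblast markers other than TWIST1 were named after their values were seen. The members and lists were chosen with earlier results of these data known. Alternatives changed the overlap, the q-value, the edges, the merging, the score, the chromosomes, the summit, the shifts, the strength measure and the libraries.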

Additional observations from a re-analysis of the deposited data

How the results depend on the processing

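The inside share exceeded that of shifted positions in all 15 alternatives run, at ratios between 3.62 (shifts of 50 and 100 kb) and 5.46 (without CTCF replicate 2). Counting sites and regions called in either replicate moved the inside share from 12.9% to 17.3%, the share of regions with CTCF from 13.1% to 15.3% and the median relative depth from 0.606 to 0.630. With the 50% of each H3K4me3 list with the lowest scores these were 9.14%, 16.2% and 0.589. The depth was 0.581 with edges set where both replicates were called and 0.595 with regions up to 1000 bp apart merged. Leaving out 1 library at a time gave inside shares from 11.6% (without CTCF replicate 1) to 16.2% (without CTCF replicate 2), shares of regions with CTCF from 10.5% to 18.2%, depths from 0.583 to 0.643, fold enrichment ratios of inside sites to those beyond 100 kb from 1.08 to 1.17, and persistence differences from -1.19 to 4.17 points. Leaving out a CTCF library kept every peak of the other, not only those called in both. The fold enrichment ratio was 1.08 without CTCF replicate 1, whereas over sites called in both the log2 difference in replicate 2 was -0.02. The fold enrichment ratio of inside sites to those beyond 100 kb, 1.11 as reported, turned to 0.983 against all outside sites. With the replicate number as a block (CTCF and H3K4me3 libraries of the same number, mean of 2 pairs) the inside share was 15.0%, the ratio to shifted positions 4.99 and the persistence difference 1.70 points, since pair 1 gave -0.94 and pair 2 gave 4.34. The numbers mark no shared culture in the labels, so this is not a paired design.

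Chosen after seeing the data, taking strength from CTCF replicate 1 alone left a persistence difference of 0.619 points, and from replicate 2 alone 4.33 points. For regions without a TSS the difference kept its sign in all 20 alternatives run, from 3.55 to 11.3 points. The lower motif share inside, at equal strength, ran from -17.7 to -10.5 points, and the lower H3K27ac share of regions without a TSS that held CTCF from -21.6 to -8.57 points, the latter with intervals called in either replicate. The share of inside sites upstream of the TSS ran from 62.4% to 68.8%. The cause of these changes was not tested. With 2 libraries a group the exact test used cannot pass a threshold, sites are not replicates, and the lists hold no read counts.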
